A study of Homo sapiens with 12 samples.

Results

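ATP-binding cassette (ABC) transporters were examined in SK-UT-1, an established cell line from a human uterine leiomyosarcoma, after 48 h in the DMSO vehicle (labelled VEH), 5 µM JQ1 or 5 µM I-BET 762. Both compounds are inhibitors of the bromodomains of the BET proteins. The members are the gene symbols made of ABC, a letter from A to G and a number, and 43 of the 22784 symbols in the table of values qualified. A further 5 ABC pseudogenes and the antisense RNA ABCA9-AS1 were left out, and ABCC12 and ABCB11 were not analysed here. RNA-seq values were available for 3 DMSO libraries (replicates 13, 14 and 15), 4 JQ1 libraries (17, 18, 19 and 20) and 3 I-BET 762 libraries (21, 22 and 23). All libraries came from 1 cell line, and the labels do not say whether they came from separate cultures, so the p-values measure the spread between these libraries, which may be technical.

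ABC proteins bind ATP on a pair of conserved nucleotide-binding domains and, in most members, use its hydrolysis to move a substrate through a membrane. The A and G families are known mainly for lipids and sterols, several B and C members and ABCG2 for the export of drugs and conjugates, the D family for peroxisomes and lysosomes, and other B members for mitochondria and lysosomes. ABCE1 and the F family lack membrane-spanning parts and act in translation. ABCB1, ABCC1 and ABCG2 are the transporters best known from multidrug resistance of tumours.

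The DMSO libraries held 35564586 to 38899935 reads on genes, the JQ1 libraries 35691648 to 39658989 and the I-BET 762 libraries 37733027 to 38404997. A library count of 0 allows up to 3 reads, equal to 2.73 to 3.30 normalized counts, and these limits cover counting error only. The smooth muscle markers ACTA2, TAGLN and CALD1 were detected in every library, but the summed count of the 5 measured smooth muscle markers was 17766 to 18836 with DMSO, 7933 to 8619 with JQ1 and 9189 to 9600 with I-BET 762. All 5 fell with both inhibitors, where 22.8% of all tested genes fell with JQ1 and 17.9% with I-BET 762. The uterine hormone receptors ESR1 and PGR summed to at most 6.53 counts in any library. Epithelial markers (EPCAM, CDH1, KRT8 and KRT18) summed to 470 to 531, 271 to 336 and 311 to 343 counts in the same order of groups, and endothelial markers to at most 7.40 counts. Of the 3 tested epithelial markers, 3 fell with JQ1 and 2 with I-BET 762. The leukocyte markers summed to 23.7 to 36.1 counts with DMSO, 28.6 to 37.0 with JQ1 and 17.7 to 22.1 with I-BET 762, nearly all from CD14, which was called higher with JQ1 than with I-BET 762 (log2 difference 0.66 ± 0.22, limma adjusted p = 0.0387), while PTPRC had at most 0.98, the value of 1 read. The fibroblast markers summed to 17.4 to 25.5, 5.49 to 13.1 and 5.01 to 15.8 counts, and only PDGFRA of them was tested. It was called with neither inhibitor (log2 fold change -0.97 ± 0.42, limma adjusted p = 0.05004, with JQ1 and -0.98 ± 0.45, limma adjusted p = 0.0703, with I-BET 762). The part of these marker differences in the results below was not tested. In bulk RNA, fewer cells of a type and less RNA per cell cannot be told apart.

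Of the 43 members, 32 passed the filter of at least 10 normalized counts in at least 3 libraries, which 14839 symbols passed in all. The 11 members below it were ABCA12, ABCA13, ABCB1, ABCB4, ABCB5, ABCC9, ABCC11, ABCD2, ABCG2, ABCG5 and ABCG8, and 6 of them had at most 3 reads in every library. ABCA9 passed through its DMSO libraries alone and ABCF1 through treated libraries alone, and ABCA4 had 1 treated library at 10 counts or more, so a difference was built into their testing and their values are given with no p. Levels were compared between genes per kilobase of exon. On that scale ABCE1, which splits ribosomes after termination, was highest in the DMSO libraries at 2016 ± 125 (SD, n = 3), followed by the peroxisomal transporter ABCD3 at 799.5 ± 46.1. The mitochondrial ABCB10 followed at 605 ± 28.3 and the translation factor ABCF3 next at 435 ± 19.8. None of these 4 is a lipid or drug efflux transporter of the plasma membrane.

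**Figure D1:**
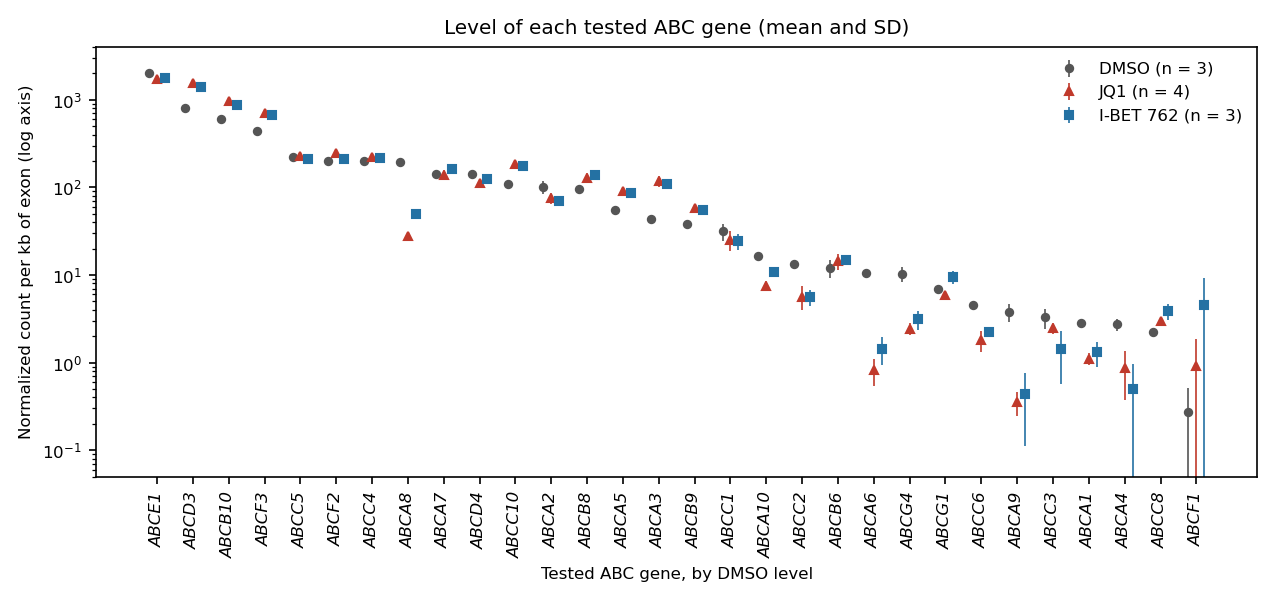
Level of 30 of the 32 tested ABC genes as normalized count per kilobase of exon on a log axis, with the mean as a point and the SD as a bar for DMSO (n = 3), JQ1 (n = 4) and I-BET 762 (n = 3). The DMSO means run from 2016 for ABCE1 to 0.27 for ABCF1, and bars that reach below the axis are cut at its lower end.

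A member was called when limma with Benjamini-Hochberg adjustment over all 14839 tested genes gave an adjusted p under 0.05 and the fold change was over 1.5. With JQ1, 16 of the 32 tested members were called against DMSO, beside 36.1% of all tested genes. Of these, 7 rose (13.3% of all tested genes rose) and 9 fell (22.8% of all fell). With I-BET 762, 17 of 32 were called, beside 26.9% of all tested genes, and 7 rose (8.96% of all) and 10 fell (17.9% of all). Both comparisons used the same 3 DMSO libraries. Leaving out the 3 members whose passing of the filter rested on 1 side, 7 rose and 7 fell with JQ1 and 6 rose and 8 fell with I-BET 762. The median log2 fold change of the 32 members was -0.13 with JQ1, beside 0.0076 over all tested genes, and -0.0083 with I-BET 762, beside -0.00063. In 11 members every JQ1 library lay above every DMSO library and in 11 every JQ1 library lay below, where 34.1% and 34.3% of all tested genes did so. With I-BET 762 these were 13 and 13 members, beside 34.8% and 36.2% of all tested genes. On the adjusted p alone, with no fold threshold, 25 members passed with JQ1 (71.7% of all tested genes) and 21 with I-BET 762 (61.1% of all). When libraries were rescaled to equal totals, which shifted the median of all tested genes by -0.18 for JQ1, 2 members rose and 10 fell with JQ1, beside 8.24% and 28.4% of all tested genes, and 5 rose and 11 fell with I-BET 762, beside 6.70% and 20.6%.

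**Figure D2:**
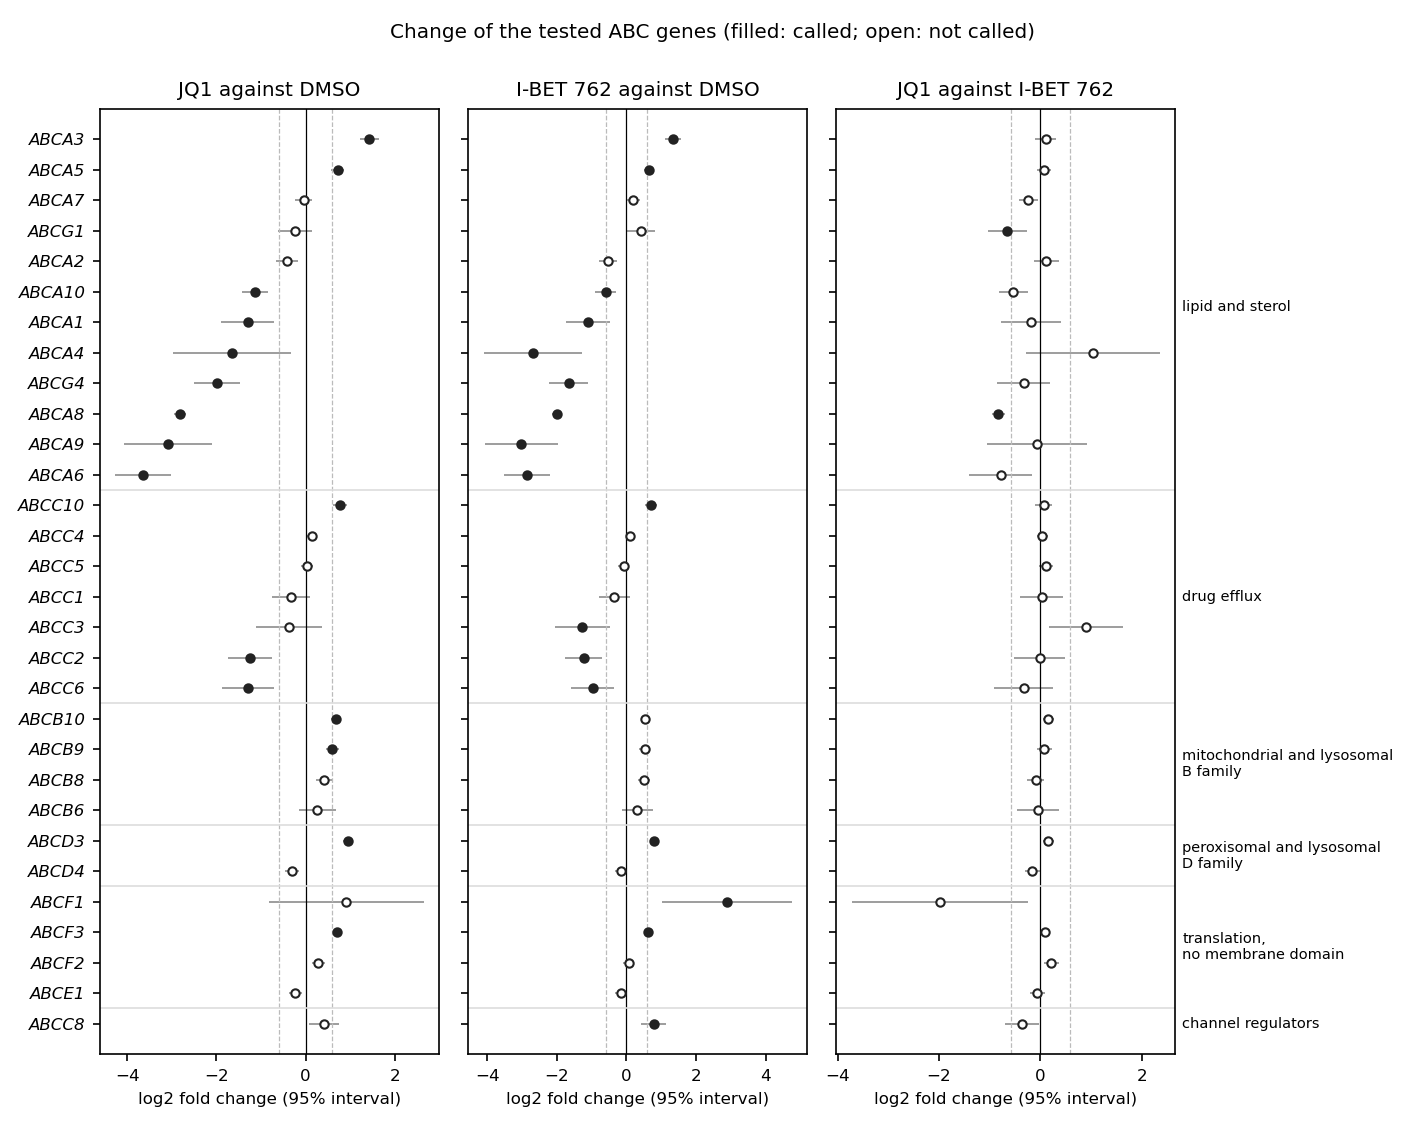
Log2 fold change of 30 of the 32 tested ABC genes with its 95% interval, by role, for JQ1 against DMSO, I-BET 762 against DMSO and JQ1 against I-BET 762, where dashed lines mark a 1.5-fold change. Filled points are called (16, 17 and 2 genes), and in the lipid and sterol block 7 filled points lie left of 0 in both of the first panels. These 7 include ABCA4 and ABCA9, for which a difference was built into their testing.

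The lipid and sterol group held most of the falls. Of its 12 tested members (17 in all), 2 rose and 7 fell with JQ1, and 2 rose and 7 fell with I-BET 762. Of all tested genes, 13.3% rose and 22.8% fell with JQ1, and 8.96% rose and 17.9% fell with I-BET 762. The falls include ABCA4 and ABCA9, for which a difference was built into their testing. The median log2 fold change of the group, with ABCA4 and ABCA9 included, was -1.22 with JQ1 and -0.86 with I-BET 762. ABCA4 (-1.66 and -2.69) and ABCA9 (-3.08 and -3.02) both lay below these medians, so their inclusion lowered them. With JQ1 the lowest values were those of ABCA6, ABCA9 and ABCA8, genes that stand side by side on chromosome 17, while with I-BET 762 ABCA4 (-2.69) lay below ABCA8 (-1.99). The summed normalized count of the 17 members was 6289 ± 322 (SD, n = 3) with DMSO, 4774 ± 325 (n = 4) with JQ1 and 5106 ± 151 (n = 3) with I-BET 762. ABCA8 alone had means of 2214, 314 and 557 in these groups, a larger fall than that of the sum. The summed count of the other members thus did not fall.

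ABCA8, an A family transporter linked to cholesterol and phospholipid efflux, was the most abundant member of the group in the DMSO libraries, at a mean of 197 normalized counts per kilobase of exon. With JQ1 (27.9) and I-BET 762 (49.6) it lay below ABCA7 (139.9 and 163) on that scale. Its normalized counts were 2213, 2255 and 2173 in the DMSO libraries, 319.8, 306, 318 and 311 with JQ1, and 593, 552 and 527 with I-BET 762. The groups were fully apart, with DMSO highest and JQ1 lowest. ABCA8 was 7.04-fold lower with JQ1 (log2 fold change -2.81 ± 0.06 (SE), limma adjusted p = 8.78e-15) and 3.97-fold lower with I-BET 762 (-1.99 ± 0.07, limma adjusted p = 2.73e-12).

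ABCA6 and ABCA9, its neighbours in the array, fell to low counts. ABCA6 had 138, 165 and 147 counts with DMSO, 12.1, 15.2, 13.0 and 6.09 with JQ1, and 14.8, 18.0 and 28.5 with I-BET 762. No treated library came near the DMSO libraries, and the fall was 12.5-fold with JQ1 (-3.65 ± 0.29, limma adjusted p = 1.39e-08) and 7.28-fold with I-BET 762 (-2.86 ± 0.31, limma adjusted p = 9.59e-07). ABCA9 had 32.0, 43.5 and 27.3 counts with DMSO, 3.30, 4.35, 3.0 and 2.03 with JQ1, and 3.94, 1.0 and 6.89 with I-BET 762. Its treated libraries held 1 to 7 reads, so its fold changes (log2 -3.08 ± 0.47 and -3.02 ± 0.50) rest on few reads. Without I-BET 762 replicate 22 the latter was -2.47.

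ABCA10 lies next in the same array. Its counts were 135, 145 and 137 with DMSO, 74.7, 60.9, 60.03 and 56.8 with JQ1, and 87.6, 96.2 and 89.6 with I-BET 762. The 3 groups did not overlap, and the fall was 2.19-fold with JQ1 (-1.13 ± 0.13, limma adjusted p = 1.47e-06) and 1.52-fold with I-BET 762 (-0.60 ± 0.14, limma adjusted p = 0.00188). The I-BET 762 call stood at the threshold, with values of -0.57 without DMSO replicate 14 and -0.57 without I-BET 762 replicate 21, where it was lost. ABCA5, the last gene of the array and a lysosomal transporter, went the other way. It had 773, 668 and 709 counts with DMSO, 1175, 1269, 1149 and 1137 with JQ1, and 1102, 1079.8 and 1202 with I-BET 762. Every treated library lay above every DMSO library, and the rise was 1.65-fold with JQ1 (0.72 ± 0.07, limma adjusted p = 7.57e-08) and 1.57-fold with I-BET 762 (0.65 ± 0.07, limma adjusted p = 9.61e-07). With equal totals, the ABCA5 values were 0.54 and 0.56 and neither was called.

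In Gencode V44, on the GRCh38 assembly, the 5 genes fill chr17:68867289-69327244 on the minus strand, a span of 460 kb, in the order ABCA8, ABCA9, ABCA6, ABCA10 and ABCA5 by coordinate. ABCA10 starts inside the 3′ part of ABCA5, and the 2 genes have 318 exon bases in common, so the assignment of reads there is uncertain. ABCA8 and ABCA9 overlap the antisense gene ABCA9-AS1, and reads of the 2 strands cannot be told apart where the strand setting of the counting is not given. Of the 11 other symbols within 500 kb of the array, 5 were tested. With JQ1, 3 of them fell, namely ARSG (-0.74), WIPI1 (-0.72) and MAP2K6 (-1.76), and with I-BET 762, 2 fell, ARSG (-0.85) and MAP2K6 (-0.90). Of all tested genes, 22.8% fell with JQ1 and 17.9% with I-BET 762. PRKAR1A (-0.07 and -0.09) and PRO1804 (-0.35 and 0.08) were not called. This window was chosen after its values were seen.

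**Figure D3:**
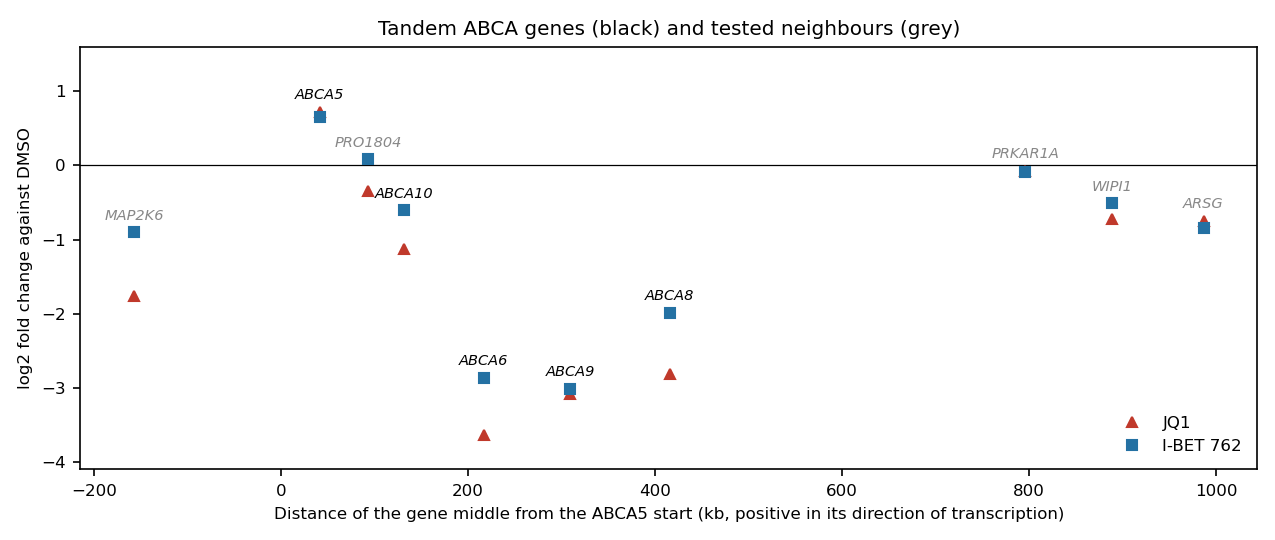
Log2 fold change against DMSO (vertical axis) of the 5 tandem ABCA genes and 5 tested neighbours, by the distance in kb of the gene middle from the ABCA5 start in its direction of transcription (horizontal axis), with JQ1 as triangles and I-BET 762 as squares. ABCA10, ABCA6, ABCA9 and ABCA8 lie below 0 with both inhibitors, while ABCA5 lies above 0 at 0.72 and 0.65.

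The start regions of the array genes were compared in base composition, except that of ABCA8, which had no matched window. RefSeq promoter windows on GRCh38.p14 were matched to 33 of the 43 members, and CpG pairs were counted in the 250 bases before the start. Those of ABCA9, ABCA6 and ABCA10 held 1, 2 and 2 CpG, and that of ABCA5 held 42. The ABCA10 window lies wholly in ABCA5 exons and is not printed. The printed stretches are the parts of these windows outside annotated exons, 5′ to 3′ on the gene's own strand, with each CpG in capitals. They show 2 members that fell with both inhibitors and hold few CpG beside ABCA5, which rose. ABCA9 (chr17:69060950-69061177, minus strand) holds 1 CpG in 228 bases, ABCA6 (chr17:69141896-69142145, minus strand) holds 2 in 250, and ABCA5 (chr17:69327245-69327383, minus strand) holds 24 in 139.
ABCA9: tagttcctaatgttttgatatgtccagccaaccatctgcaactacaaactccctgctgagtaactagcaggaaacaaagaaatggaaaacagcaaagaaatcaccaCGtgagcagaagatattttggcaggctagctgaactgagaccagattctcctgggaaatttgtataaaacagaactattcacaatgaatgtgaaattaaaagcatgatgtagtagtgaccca
ABCA6: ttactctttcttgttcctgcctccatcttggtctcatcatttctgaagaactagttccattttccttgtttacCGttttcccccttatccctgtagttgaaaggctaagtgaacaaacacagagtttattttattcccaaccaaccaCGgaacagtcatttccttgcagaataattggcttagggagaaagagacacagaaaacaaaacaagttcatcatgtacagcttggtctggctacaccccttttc
ABCA5: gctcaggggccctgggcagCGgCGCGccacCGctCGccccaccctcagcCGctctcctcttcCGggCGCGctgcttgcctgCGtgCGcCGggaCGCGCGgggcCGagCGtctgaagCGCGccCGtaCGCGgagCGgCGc

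Outside the array, 1 member that fell with both inhibitors and 2 that rose are shown, picked for their CpG counts after these were seen. The other matched members that fell outside the array, ABCA1, ABCC6 and ABCG4, held 16, 21 and 19 CpG in the full windows. ABCC2 (chr10:99782390-99782639, plus strand) holds 1 CpG in 250 bases, ABCA3 (chr16:2340747-2340921, minus strand) holds 25 in 175, and ABCD3 (chr1:94418229-94418388, plus strand) holds 26 in 160.
ABCC2: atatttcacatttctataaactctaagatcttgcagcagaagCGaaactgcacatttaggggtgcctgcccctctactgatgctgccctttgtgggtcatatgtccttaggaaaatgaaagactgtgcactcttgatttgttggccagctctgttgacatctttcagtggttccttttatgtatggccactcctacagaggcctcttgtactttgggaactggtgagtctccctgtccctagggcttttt
ABCA3: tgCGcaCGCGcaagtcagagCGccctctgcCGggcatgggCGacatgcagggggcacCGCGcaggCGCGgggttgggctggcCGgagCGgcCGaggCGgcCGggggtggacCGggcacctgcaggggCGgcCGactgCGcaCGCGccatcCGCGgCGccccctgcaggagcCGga
ABCD3: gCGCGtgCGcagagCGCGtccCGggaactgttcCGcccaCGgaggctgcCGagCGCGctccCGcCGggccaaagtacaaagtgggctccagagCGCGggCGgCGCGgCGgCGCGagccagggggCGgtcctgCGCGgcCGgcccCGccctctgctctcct

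Over the full 250-base windows, the 5 members that rose with both inhibitors had 14 to 42 CpG, and the 7 matched members that fell with both had 1 to 21, with a median of 2. These 7 include ABCA9, for which a difference was built into its testing. The median over 35116 promoters was 11, and 0 of the 5 and 4 of the 7 lay under it. The 9 tested members called with neither had 12 to 42, and the 9 untested members had 0 to 15, of which 8 lay under 11. The counts describe these windows and were not tested against the changes.

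Short motifs were searched in the same windows on both strands. The E-box letters CACGTG were present in 6 of the 33 member windows (ABCA1, ABCA9, ABCB6, ABCB9, ABCC10 and ABCF1), beside 6.34% of all promoters. GGGCGG, the core of a GC box, was present in 17, beside 42.6%. TATAAA was present in 6 (10.7% of all) and CCAAT in 6 (32.0% of all). A direct repeat of AGGTCA with 4 bases between the copies, a form bound by liver X receptors (LXR), was in none of the 33 windows. It was in 0.0142% of all promoters. Only these exact letters were sought, and they are too rare for their absence to tell whether a window holds an LXR site. A match is a description of the letters, and the absence of a match says only that they are not in the window. The letters of different motifs may overlap, as a GC box can hold CpG.

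Outside the array, ABCA1, which loads cholesterol and phospholipid onto apolipoprotein A-I, was weakly expressed and fell with both inhibitors. Its counts were 32.9, 31.4 and 31.9 with DMSO, 13.2, 9.79, 13.0 and 14.2 with JQ1, and 19.7, 10.03 and 14.8 with I-BET 762. All treated libraries lay below the DMSO libraries, with a 2.46-fold fall with JQ1 (-1.30 ± 0.28, limma adjusted p = 0.000558) and a 2.16-fold fall with I-BET 762 (-1.11 ± 0.30, limma adjusted p = 0.0042). ABCG4, a G family transporter of the same sterol pathway, had 61.0, 52.7 and 77.4 counts with DMSO, 17.6, 12.0, 15.0 and 16.2 with JQ1, and 16.7, 25.1 and 16.7 with I-BET 762. The treated libraries again lay below all DMSO libraries, 3.98-fold lower with JQ1 (-1.99 ± 0.25, limma adjusted p = 2.15e-06) and 3.17-fold lower with I-BET 762 (-1.66 ± 0.26, limma adjusted p = 4.8e-05).

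ABCA4, the retinoid and phospholipid transporter of photoreceptors, was near the detection limit in treated cells. Its counts were 25.2, 25.9 and 19.1 with DMSO, 13.2, 7.62, 3.0 and 6.09 with JQ1, and 7.87, 0 and 4.92 with I-BET 762. On the log2 scale ABCA4 changed by -1.66 ± 0.62 (SE) under JQ1 and by -2.69 ± 0.67 under I-BET 762. The JQ1 call was lost without DMSO replicate 13 (-1.60), without DMSO replicate 14 (-1.58) and without JQ1 replicate 19 (-1.34). The I-BET 762 value was -1.74 without replicate 22 and -3.31 without replicate 21.

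ABCA3, which fills the lamellar bodies of lung cells with phospholipid, was the other lipid transporter that rose. It had 369, 326 and 314 counts with DMSO, 887, 825, 837 and 1116 with JQ1, and 921, 807 and 814 with I-BET 762. Its lowest treated library stood well above its highest DMSO library. The rise was 2.70-fold with JQ1 (1.43 ± 0.10, limma adjusted p = 2.37e-09) and 2.52-fold with I-BET 762 (1.33 ± 0.11, limma adjusted p = 2.95e-08). ABCA2, a lysosomal lipid transporter, ABCA7, which moves phospholipid, and ABCG1, which passes cholesterol to high-density lipoprotein, were not called against DMSO. Their log2 fold changes were -0.42, -0.03 and -0.23 with JQ1 and -0.54, 0.20 and 0.42 with I-BET 762.

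Genes of LXR and SREBP sterol control, with some LXR targets among them, were listed separately. Of 11 LXR and SREBP genes, 10 were tested, and with JQ1 MYLIP rose and SREBF1 fell. Of all tested genes, 13.3% rose and 22.8% fell with JQ1. MYLIP, an LXR target that marks lipoprotein receptors for degradation, had 321 to 337 counts with DMSO and 586 to 609 with JQ1 (0.87 ± 0.07, limma adjusted p = 2.04e-08). SREBF1, a master factor of lipid synthesis, had 2356 to 2684 counts with DMSO and 1244 to 1762 with JQ1 (-0.64 ± 0.10, limma adjusted p = 2.22e-05). With I-BET 762 no gene of this list was called, beside 26.9% of all tested genes. The values were 0.30 for MYLIP and -0.29 for SREBF1. The LXR genes NR1H2 and NR1H3 changed by 0.14 and -0.04 with JQ1 and by -0.09 and -0.02 with I-BET 762, none of them called.

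**Figure D4:**
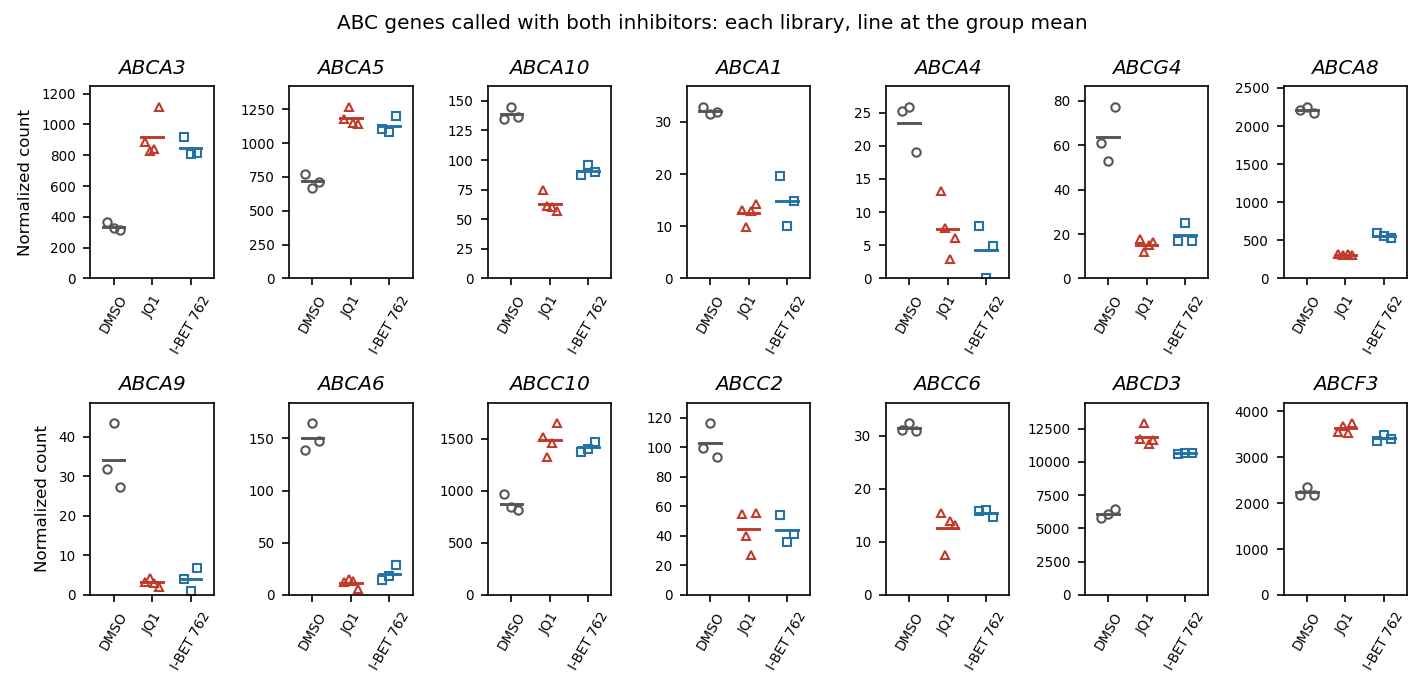
Normalized count (vertical axis, from 0) in each DMSO, JQ1 and I-BET 762 library of the 14 ABC genes called in the same direction with both inhibitors, 5 up and 9 down, with a line at each group mean. In all 14 panels the treated libraries lie on one side of the 3 DMSO libraries. The genes were picked by these calls, which favours such a separation. The 9 down include ABCA4 and ABCA9, for which a difference was built into their testing.

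Drug efflux transporters were mostly weak or not called. Of 11, 7 were tested, with 1 rise and 2 falls with JQ1 and 1 rise and 3 falls with I-BET 762. Of all tested genes, 13.3% rose and 22.8% fell with JQ1, and 8.96% rose and 17.9% fell with I-BET 762. The group's median log2 fold change was -0.33 and -0.35. ABCB1, the P-glycoprotein gene, was at 0 in 9 libraries and at 0.92 counts, the value of 1 read, in DMSO replicate 14, and was not tested. ABCG2, the breast cancer resistance protein, had 8.72, 10.2 and 2.73 counts with DMSO, 6.59, 5.44, 4.0 and 4.06 with JQ1, and 5.90, 6.02 and 14.8 with I-BET 762. Its groups overlapped, and it was not tested. ABCC1, which exports glutathione conjugates, had 337, 216 and 268 counts with DMSO, 211, 146, 268 and 259 with JQ1, and 194, 181 and 266 with I-BET 762. These overlapped too, and no difference was called (-0.33 ± 0.20, limma adjusted p = 0.152, and -0.35 ± 0.21, limma adjusted p = 0.159), with 95% intervals from -0.74 to 0.09 and from -0.80 to 0.09 on the log2 scale. An exact copy on an alternate contig was found for 91.8% of its 75-base exon stretches, so its level is uncertain.

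ABCC10, an exporter linked to taxane resistance, was the drug efflux gene that rose. Its counts were 966, 841 and 814 with DMSO, 1522, 1326, 1457 and 1651 with JQ1, and 1378, 1407 and 1474 with I-BET 762. The treated libraries lay above all DMSO libraries, 1.70-fold with JQ1 (0.77 ± 0.08, limma adjusted p = 1.59e-07) and 1.63-fold with I-BET 762 (0.70 ± 0.08, limma adjusted p = 1.7e-06). With equal totals the JQ1 value was 0.58, just under the fold threshold.

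ABCC2, the exporter of bilirubin and other conjugates in liver, fell. It had 99.8, 116 and 93.7 counts with DMSO, 54.9, 40.3, 27.0 and 55.8 with JQ1, and 54.1, 36.1 and 41.3 with I-BET 762. The groups treated with the inhibitors overlapped each other but not DMSO, and were 2.37-fold (-1.25 ± 0.23, limma adjusted p = 0.000179) and 2.35-fold lower (-1.23 ± 0.25, limma adjusted p = 0.000513). ABCC6, known from ectopic mineralization, had 31.0, 32.4 and 30.9 counts with DMSO, 15.4, 7.62, 14.0 and 13.2 with JQ1, and 15.7, 16.0 and 14.8 with I-BET 762. It fell 2.46-fold (-1.30 ± 0.27, limma adjusted p = 0.000511) and 1.96-fold (-0.97 ± 0.29, limma adjusted p = 0.00919), but 92.0% of its exon stretches have an exact copy elsewhere, including the pseudogenes ABCC6P1 and ABCC6P2, so its counts are uncertain.

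ABCC3, a basolateral exporter of bile acids and glucuronides, had 38.7, 33.3 and 22.8 counts with DMSO, 24.2, 19.6, 24.0 and 27.4 with JQ1, and 22.6, 6.02 and 12.8 with I-BET 762. The JQ1 libraries overlapped the DMSO libraries (-0.37 ± 0.35, limma adjusted p = 0.349), while the highest I-BET 762 library lay just under the lowest DMSO library, and the fall with I-BET 762 was called (-1.27 ± 0.37, limma adjusted p = 0.00742). The ABCC3 value was -0.82 without I-BET 762 replicate 22 and -1.70 without replicate 21, both called. The difference between the inhibitors was not called (0.90 ± 0.35, limma adjusted p = 0.0664). ABCC4 and ABCC5, exporters of cyclic nucleotides, were expressed at 1697 to 2849 counts over all libraries and were called in no comparison. ABCC11, under the filter, had 8.72, 12.9 and 4.55 counts with DMSO, 3.30, 2.18, 2.0 and 3.04 with JQ1, and 0.98, 1.0 and 0.98 with I-BET 762. Every treated library held 3 reads or fewer, so no fold change is given, and no test was made.

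Of 7 xenobiotic and stress factors, 5 were tested. With each inhibitor 1 of them rose and 1 fell. Of all tested genes, 13.3% rose and 22.8% fell with JQ1, and 8.96% rose and 17.9% fell with I-BET 762. AHR, the aryl hydrocarbon receptor, rose from 17.3 to 27.7 counts with DMSO to 30.4 to 49.0 with JQ1 (0.85 ± 0.24, limma adjusted p = 0.00492) and 34.4 to 54.1 with I-BET 762 (0.97 ± 0.26, limma adjusted p = 0.00402). KEAP1, the inhibitor of NFE2L2, fell from 3975 to 4024 counts to 2054 to 2489 (-0.81 ± 0.06, limma adjusted p = 1.01e-08) and 2523 to 2728 (-0.62 ± 0.07, limma adjusted p = 9.15e-07). ARNT, NFE2L2 and HIF1A were not called, and NR1I2, the pregnane X receptor gene, had at most 3.87 counts in any library.

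In the D family, ABCD3 rose with both inhibitors and carried the sum of its group. ABCD3 brings branched fatty acids and bile acid precursors into peroxisomes. Its counts were 5767, 6120.2 and 6473 with DMSO, 11695, 12917, 11340.0 and 11618 with JQ1, and 10615, 10686 and 10691 with I-BET 762. All treated libraries lay far above DMSO, 1.94-fold with JQ1 (0.96 ± 0.05, limma adjusted p = 1.61e-10) and 1.74-fold with I-BET 762 (0.80 ± 0.06, limma adjusted p = 7.36e-09). The summed count of the 4 D family members was 7639.9 ± 305 with DMSO, 13279 ± 583 with JQ1 and 12091 ± 19.6 with I-BET 762. ABCD4, which serves lysosomal cobalamin, was not called (-0.31 with JQ1 and -0.16 with I-BET 762), and ABCD2 had at most 5.01 counts.

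The 5 tested B family members of mitochondria and lysosomes gave 2 rises with JQ1 and 0 with I-BET 762, although their medians were 0.41 and 0.50. Of all tested genes, 13.3% rose with JQ1 and 8.96% with I-BET 762. ABCB10, an inner mitochondrial membrane transporter needed for haem synthesis, had 2446, 2620.0 and 2678 counts with DMSO, 4138, 4438, 3876 and 4070.2 with JQ1, and 3655, 3714 and 3742 with I-BET 762. All treated libraries lay above DMSO, and JQ1 lay above I-BET 762 in every library. The change was 1.599-fold with JQ1 (0.68 ± 0.05, limma adjusted p = 8.4e-09), and 1.44-fold with I-BET 762, under the fold threshold (0.52 ± 0.06, limma adjusted p = 7.57e-07). ABCB9, a lysosomal peptide transporter, had 523, 533 and 463 counts with DMSO, 744, 739.9, 759 and 836 with JQ1, and 699.6, 766 and 716 with I-BET 762. It showed the same order of DMSO under both treatments, 1.52-fold with JQ1 (0.60 ± 0.07, limma adjusted p = 1.49e-06) and 1.44-fold with I-BET 762 (0.52 ± 0.08, limma adjusted p = 2.43e-05). The JQ1 call was lost without DMSO replicate 15 (0.54) and without JQ1 replicate 20 (0.56), and with equal totals the JQ1 values of ABCB10 and ABCB9 were 0.49 and 0.42 and neither was called. ABCB9 overlaps ARL6IP4 and OGFOD2 on the opposite strand.

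ABCB6 and ABCB8, both mitochondrial, gave 0.27 and 0.41 with JQ1 and 0.31 and 0.50 with I-BET 762, not called. The summed count of the 5 members was 5625 ± 193 with DMSO, 7410.0 ± 261 with JQ1 and 7176 ± 50.8 with I-BET 762.

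**Figure D5:**
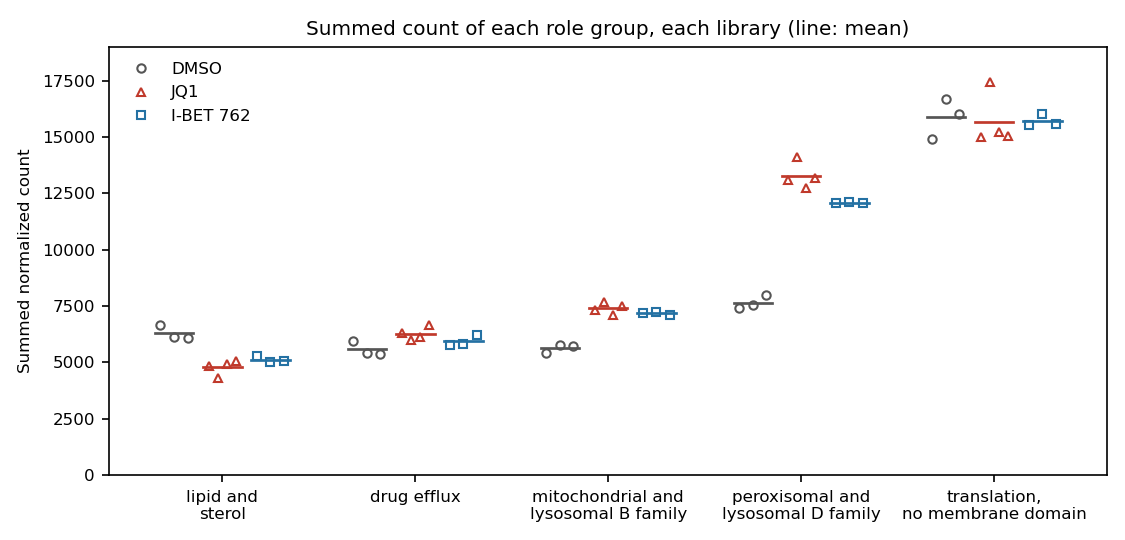
Summed normalized count of the members of 5 role groups (horizontal axis) in each DMSO, JQ1 and I-BET 762 library, with a line at the group mean and the axis starting at 0. The D family sum lay at 7400.4 to 7984 with DMSO and at 12072 to 14115 with either inhibitor, while the translation sums overlapped between all 3 groups.

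Among the 4 translation proteins, ABCF3 rose with both inhibitors. It had 2169, 2349 and 2178 counts with DMSO, 3541, 3683, 3531 and 3739.5 with JQ1, and 3360.3, 3471 and 3387 with I-BET 762. Every treated library was higher than every DMSO library, 1.62-fold with JQ1 (0.70 ± 0.05, limma adjusted p = 1.63e-09) and 1.53-fold with I-BET 762 (0.61 ± 0.05, limma adjusted p = 4.07e-08), and with equal totals the values were 0.51 and 0.51 and neither was called. ABCE1, the most abundant member per kilobase, had 11719.9, 13206 and 12889 counts with DMSO, 10183, 12606, 10366 and 10004 with JQ1, and 11093, 11433 and 11083 with I-BET 762. It was not called (-0.23 ± 0.07, limma adjusted p = 0.00797, and -0.17 ± 0.07, limma adjusted p = 0.0619), and ABCF2 was not called either (0.28 and 0.06).

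ABCF1 had 0, 1.85 and 1.82 counts with DMSO, 3.30, 3.26, 10.004 and 0 with JQ1, and 3.94, 44.1 and 13.8 with I-BET 762. The DMSO libraries were at the detection limit, and most of the I-BET 762 signal came from replicate 22. Against a value of 3 reads in every DMSO library, the I-BET 762 mean was 7.35-fold higher, and ABCF1 counts among the 7 called up. The fitted log2 value for ABCF1 was 2.89, and 3.69 without I-BET 762 replicate 21, while without JQ1 replicate 19, I-BET 762 replicate 22 or I-BET 762 replicate 23 the gene fell under the filter and had no value. All 49 of the 75-base exon stretches of ABCF1, which lies on chromosome 6, have an exact copy on alternate contigs. Reads with several places in the genome may not have been counted, and the contigs of the alignment index are not given in the sources used here, so neither the low level nor the difference can be read as that of the gene.

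ABCC8, the sulphonylurea receptor subunit of potassium channels, was the tested member of the channel regulators. It had 63.9, 57.3 and 59.2 counts with DMSO, 86.8, 74.0, 72.0 and 89.3 with JQ1, and 90.5, 94.2 and 131 with I-BET 762. The treated libraries lay above DMSO, and only the I-BET 762 change was called (0.78 ± 0.17, limma adjusted p = 0.000892, beside 0.41 ± 0.16 with JQ1, limma adjusted p = 0.0292). The difference between the inhibitors was -0.37 ± 0.16 (limma adjusted p = 0.098). Of 9 genes whose products partner with ABC proteins, 8 were tested, and none was called in any comparison. Among all tested genes, the called share was 36.1% for JQ1 and 26.9% for I-BET 762. Under JQ1, HBS1L (0.579, limma adjusted p = 1.26e-06) and SLC25A37 (0.49, limma adjusted p = 2.88e-08) lay higher by less than 1.5-fold. PELO (-0.55, limma adjusted p = 2.65e-05) and LMBRD1 (-0.51, limma adjusted p = 0.000742) lay lower by less than 1.5-fold. Their I-BET 762 values were -0.36 and -0.29, beside 0.40 for HBS1L and 0.27 for SLC25A37. Of the 3 ABC genes with other names, CFTR and TAP1 had at most 4.06 counts in any library, and TAP2, a subunit of the peptide transporter of antigen presentation, had 13.7 to 19.4 counts with DMSO, 4.40 to 10.004 with JQ1 and 7.87 to 17.0 with I-BET 762. TAP2 fell with JQ1 (-1.09 ± 0.37, limma adjusted p = 0.0156), but 99.3% of its exon stretches have exact copies elsewhere.

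JQ1 and I-BET 762, both at 5 µM for 48 h, were compared directly as 1 pair. Of the 32 members, 2 were called, beside 5.31% of all tested genes. Both lay lower with JQ1, a direction in which 3.59% of all tested genes were called, and 0 members lay higher, beside 1.73% of all. The libraries of the 2 inhibitors did not overlap in 4 members that were higher with JQ1 and 4 that were lower, beside 17.5% and 16.3% of all tested genes. ABCA8 was 1.77-fold lower with JQ1 than with I-BET 762 (-0.83 ± 0.06, 95% interval from -0.96 to -0.69, limma adjusted p = 3.71e-07). ABCG1 had 41.6, 47.1 and 39.1 counts with DMSO, 34.1, 41.3, 36.0 and 33.5 with JQ1, and 68.9, 52.1 and 52.2 with I-BET 762. The JQ1 libraries lay below all I-BET 762 libraries and overlapped DMSO, and the difference was 1.57-fold (-0.65 ± 0.18, 95% interval from -1.04 to -0.26, limma adjusted p = 0.0147). Without I-BET 762 replicate 21 it was -0.52 and was not called.

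Between the inhibitors, 6 members in all had an adjusted p under 0.05 by limma, beside 27.3% of all tested genes, and 4 of them differed by less than 1.5-fold. These were ABCA10 (-0.53 ± 0.13, limma adjusted p = 0.00886), ABCB10 (0.16 ± 0.05, limma adjusted p = 0.0364), ABCD3 (0.16 ± 0.05, limma adjusted p = 0.0387) and ABCF2 (0.22 ± 0.07, limma adjusted p = 0.0268). For 19 of the 32 members the 95% interval of the difference lay inside a 1.5-fold change in either direction. For 11 members that were not called it reached beyond 1.5-fold, so the interval includes differences of that size, and ABCA4 (-0.29 to 2.36), ABCA9 (-1.06 to 0.93) and ABCF1 (-3.72 to -0.24) had the widest intervals.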

How the data were processed

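RNA-seq was performed on SK-UT-1 cells treated with DMSO, JQ1 or I-BET 762. The labels describe 4 libraries per group, and DMSO replicate 16 and I-BET 762 replicate 24 were not analysed here. The authors checked reads with FastQC 0.73, trimmed them with Trimmomatic, aligned them to hg38 with HISAT2 2.2.1, counted them with featureCounts 2.0.3 on Gencode V41 genes, normalized with DESeq2 and excluded outlier samples. The strand setting of the counting is not given in the sources used here. As deposited, each value is the log2 of 1 plus the normalized count, and values run from 0 to 20.48. Undoing the log2 gave whole multiples of 1 step per library for 99.74% to 99.77% of values (tolerance 0.02 reads), and for all 43 members.

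Genes with at least 10 normalized counts in at least 3 libraries were fitted on the deposited log2 values (pseudocount 1) by limma 3.58.1 (R 4.3.3), the 3 groups sharing 1 model with an intensity trend, and fold changes are on that scale. Limma was used in place of a count test because the values are not raw counts. The code was tested on simulated data. Tables and figures used Python 3.11.15, numpy 2.4.6, pandas 2.3.3 and matplotlib 3.10.9. Positions and exon lengths came from Gencode V44, and exact copies were sought for non-overlapping 75-base exon stretches in 194 primary and 261 alternate sequences.

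Named members were those called in at least 1 comparison, the 5 with the highest DMSO level per kilobase, and ABCB1, ABCC1 and ABCG2 (2 tested members are not reported here by name), and of the context lists the genes called in any comparison. Other genes named in passing were chosen after their values were seen. The members and lists were chosen with earlier results of these data known. Alternatives were other pseudocounts, filters, scalings, moderation and call rules, limma-voom on the recovered reads, a model of the 2 groups compared, and leaving out each library.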

Additional observations from a re-analysis of the deposited data

Results flagged for a closer look

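ABCE1 had 1 JQ1 library far from the other 3. It had 12606 normalized counts in JQ1 replicate 18 and 10004 to 10366 in the others, so the gap to the nearest library was 0.861 of the whole range. The gap was above Dixon's 95% critical value for 4 samples, 30 members were examined in this way, and chance flags about 1 in 20 groups. Without JQ1 replicate 18 the log2 fold change of ABCE1 against DMSO was -0.31 in place of -0.23, and neither was called.

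The effects of JQ1 and I-BET 762 differed by the direct test for ABCA8 and ABCG1. The log2 difference, JQ1 minus I-BET 762, was -0.83 for ABCA8 and -0.65 for ABCG1. ABCA8 was lower with JQ1 in 4 of 4 libraries than in any I-BET 762 library, and so was ABCG1.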

How the results depend on the processing

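Of 46 fold changes of named members recomputed under the alternatives, in 837 values, 817 kept their direction and side of the threshold, 20 lost their call, 0 gained one and 0 reversed, and 25 of 35 called values kept their call under every alternative that could be run. For JQ1, equal totals gave 2 rises in place of 7, no fold threshold gave 12 and a fold change over 2 gave 1, and a mean count of at least 100 gave 1 fall in place of 9. For I-BET 762, a fold change over 2 gave 2 rises in place of 7, and a mean count of at least 100 gave 1 fall in place of 10. Between the inhibitors, no fold threshold gave 3 members higher with JQ1 in place of 0, and a mean count of at least 100, equal totals and a fold change over 2 gave 1, 4 and 0 lower in place of 2. The filter at a mean of 100 removes low genes by its construction. At that filter 1914 of 11072 tested genes fell with JQ1 and 1447 with I-BET 762, and 264 were lower between the inhibitors. With equal totals, 8.24% of all tested genes rose with JQ1, and 782 of 14839 were lower between the inhibitors. On the adjusted p alone, in either direction, 71.7% passed with JQ1 and 27.3% between the inhibitors. The share at a fold change over 2 is not given here. The median fold change of the members with JQ1 was -0.31 with no filter, 0.28 at a mean of at least 100 and -0.32 with equal totals, in place of -0.13, and its sign thus depends on the filter. With I-BET 762 it was -0.16, 0.20 and -0.10 in place of -0.01, and between the inhibitors 0.068 at a mean of at least 100 and -0.12 with equal totals, in place of -0.03. Leaving out 1 library at a time gave 6 to 8 rises and 7 to 9 falls with JQ1, 6 to 7 and 9 to 10 with I-BET 762, and 0 to 1 higher and 2 to 3 lower between the inhibitors. The medians then ranged from -0.23 to 0.0060, from -0.12 to 0.064 and from -0.046 to 0.048. Equal totals moved the median of all tested genes by -0.18, -0.10 and -0.09. Without members whose exon stretches mostly have exact copies, chosen after seeing the data, 7 rose and 8 fell with JQ1 and 6 rose and 9 fell with I-BET 762. Members with few copied stretches, such as ABCB10 at 6.12%, were kept. Leaving out ABCA4, ABCA9 and ABCF1 is likewise a choice made after seeing the data. Limma-voom on the recovered reads called 1982 genes up and 3414 down with JQ1, 1330 and 2703 with I-BET 762, and 241 and 498 between the inhibitors, with the counts of called members as in the report. The cause of these shifts was not tested. No paired analysis was possible because the replicate numbers of the libraries are all different. Depth limits the members under about 3 reads per library, whose differences were not detectable.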
